A study of Mus musculus with 18 samples.

Results

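Mouse embryonic stem cells with a conditional knockout of Oct1 were compared between day 3 and day 6 of a mesoderm differentiation. The comparison used 6 of the 18 RNA-seq libraries of the series, chosen by their genotype and day labels, with 3 libraries from each day. The series holds parental and Oct1_cKO (conditional knockout) cells at days 0, 3 and 6, plated on gelatin and taken through the mesoderm-inducing protocol of Chal et al. RNA was sequenced, and each library gives a raw read count per gene. The parental libraries of days 3 and 6 are used to ask where the change in cKO cells differed. All 18 libraries also entered the gene filter, the scaling and the estimate of spread behind the p-values. With the 6 cKO libraries alone, fewer genes passed at an adjusted p under 0.05 in edgeR's test (10585 beside 13404). The labels call the cells ESC at every day, including day 6, and give neither the Cre driver nor whether the cKO line was 1 clone. Whether the 3 libraries of a day came from separate cultures is not said, so p-values measure only the spread between libraries, which may be technical.

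Oct1 is the product of the gene Pou2f1, a transcription factor with a POU domain, and it binds the octamer, a short DNA motif shared with its relative Oct4. In the embryo, cells that leave pluripotency pass through the primitive streak, and paraxial mesoderm from the streak is then segmented into somites, the source of skeletal muscle, dermis and axial skeleton. Mesoderm is also the source of the lateral plate, kidney and endothelium, and Hox genes are switched on in the order of their positions along each cluster as the trunk forms.

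Pou2f1 (ENSMUSG00000026565, chr1:165865154-166002678 of GRCm38, minus strand) measured 84.7, 95.4 and 81.7 CPM on day 3 and 84.02, 65.4 and 82.5 CPM on day 6 in replicates 1, 2 and 3. CPM stands for the count relative to the library's TMM-scaled total, and replicates are numbered in accession order. The lowest value was that of day 6 replicate 2, and the log2 change of -0.17 ± 0.11 (SE) did not pass the test (adjusted p = 0.173, and -0.07 without replicate 2). Reads were summed over the whole gene, so these values do not show which exons were left.

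The 3 day 3 libraries held 16312359 to 23774141 counts and the 3 day 6 libraries 19465052 to 21579147. Replicate 2 of day 6 stood apart. The root mean square log2 difference between 2 libraries of a day was 0.452 to 0.502 on day 3, 0.443 between day 6 replicates 1 and 3, and 0.833 and 0.810 between replicate 2 and the other two. The median log2 difference of replicate 2 from the other two lay between -0.11 and -0.03 on each of 20 chromosomes. Ribosomal protein genes took 5.84% to 6.38% of counts on day 3 and 3.31%, 2.62% and 3.13% on day 6, and mitochondrially encoded genes 5.22% to 5.50% and 4.44% to 4.58%. The part of replicate 2 or of these shares in the gene changes was not tested, and results are also given without that library. Each gene written here as having risen or fallen was called in the same direction without it, with T as the one exception. In bulk RNA, fewer cells of a type and less RNA per cell cannot be told apart.

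Between day 3 and day 6, core pluripotency genes such as Pou5f1 and Nanog fell to a few CPM, while most listed genes of somites, muscle progenitors, mesenchyme, extracellular matrix and the Hox clusters rose. Of 20267 genes tested with edgeR's quasi-likelihood test and Benjamini-Hochberg adjustment, 13404 were called at an adjusted p under 0.05, which is 66.1% of genes tested. The called genes comprised 6351 higher on day 6 (31.3% of genes) and 7053 lower (34.8%). Which direction held more genes depended on the processing. Higher genes were more with scaling by totals (7099 and 6106 lower) and with the 6 cKO libraries alone (5439 and 5146). They were also more with RLE scaling (6777 and 6557), no low-count filter (7508 and 6683) and DESeq2 (6719 and 6543). The same held with only the 12 libraries of days 3 and 6 (6580 and 6157). Lower genes stayed more with a filter of 1 CPM in 3 libraries (5931 higher and 6744 lower) and when any 1 cKO library of these days was left out. A change of at least 2-fold was called for 4008 genes upwards (19.8%) and 3447 downwards (17.0%), and at least 32-fold for 464 upwards and 160 downwards. Without replicate 2 the 2-fold counts were 3911 (18.8% of 20814 genes tested) and 3347 (16.1%), and 12613 of the 13404 called genes were called in the same direction. The median log2 change over all genes was -0.06, and 0.05 when libraries were scaled by their totals alone, a shift of 0.12 against which small changes should be read. With so large a share of genes called, a count of called list members is read against these percentages.

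**Figure D1:**
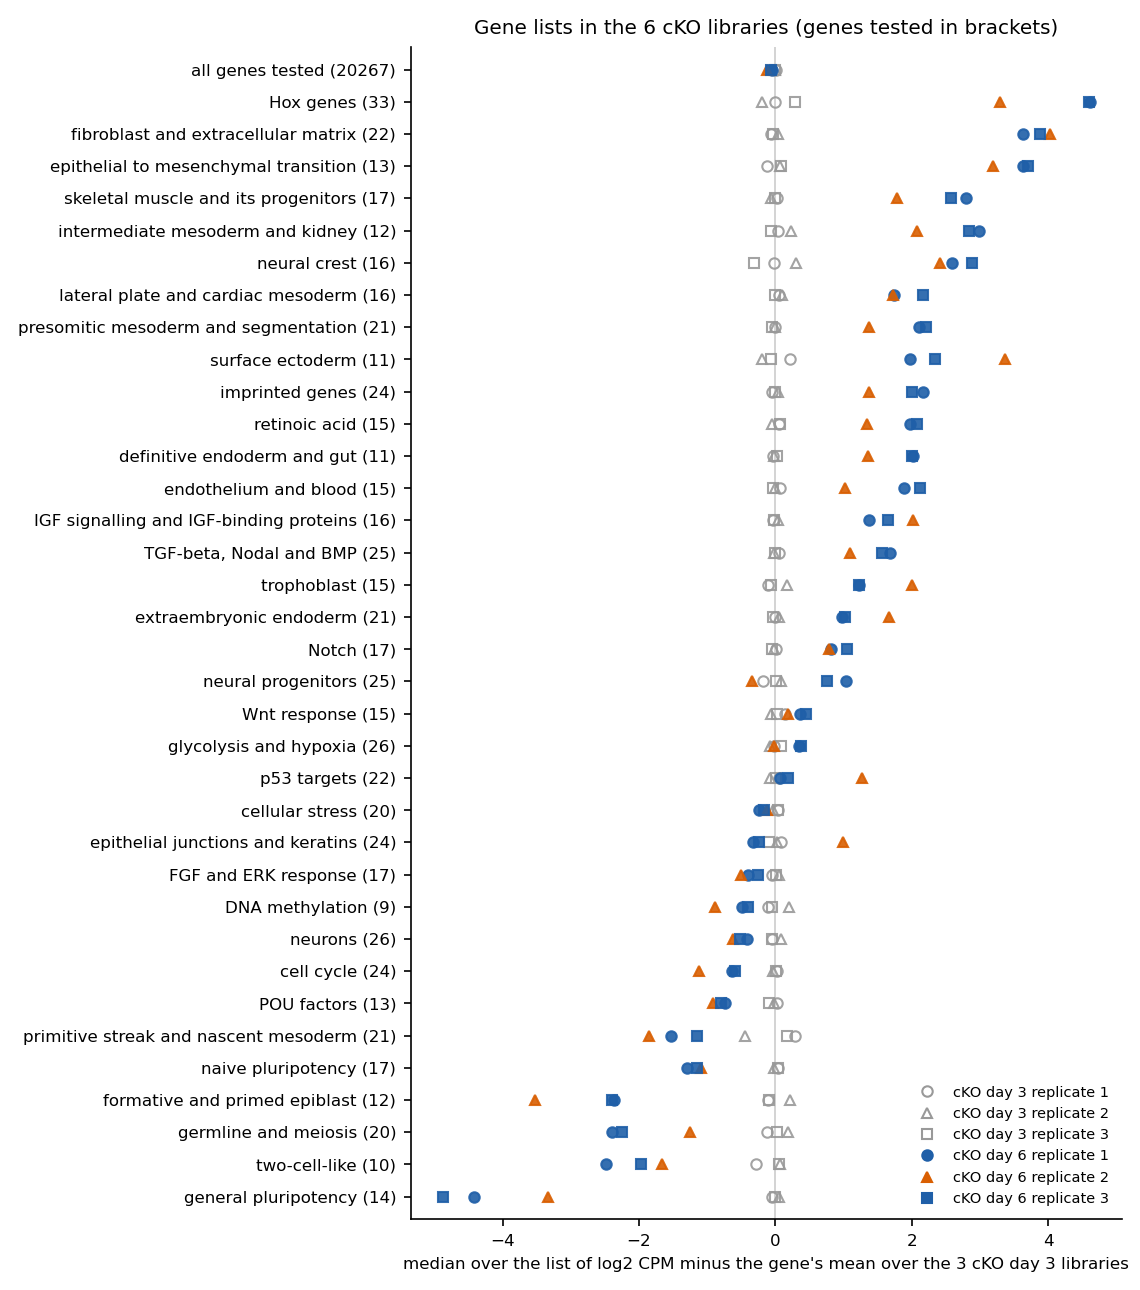
Median of each gene list in each of the 6 cKO libraries, as log2 CPM minus the gene's mean over the 3 day 3 libraries (x axis, log2 units), with the number of genes tested in brackets; open grey markers stand for day 3 and filled markers for day 6, with replicate 2 of day 6 in orange. Hox genes lie at 4.61, 3.30 and 4.60 in day 6 replicates 1, 2 and 3, and the epithelial list at -0.33, 1.0 and -0.24.

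Pou5f1, Nanog and Tdgf1 were at a few CPM on day 6, although the labels still name the cells ESC. In the general pluripotency list 13 of 14 genes fell, 11 of them by at least 2-fold, and none was called higher (median log2 change -4.17, and -4.69 without replicate 2). Pou5f1, which encodes Oct4 (ENSMUSG00000024406, chr17:35506018-35510772), measured 355, 337 and 360.3 CPM on day 3 and 1.25, 6.13 and 4.11 CPM on day 6. Every day 6 library lay far below every day 3 library, a log2 change of -6.52 ± 0.31 (adjusted p = 1.76e-10, and -7.04 without replicate 2). Nanog, a homeobox factor of the same network, gave 185, 134 and 182 CPM on day 3 and 2.36, 1.98 and 2.74 CPM on day 6. The 2 days were again widely separated (-6.14 ± 0.14, adjusted p = 1.08e-16, and -6.03 without replicate 2). Tdgf1, the Nodal co-receptor Cripto, fell most in this list, from 534, 421 and 566 CPM to 3.84, 3.59 and 4.11 CPM. Its day 6 libraries differed little from each other, and the log2 change was -7.04 ± 0.12 (adjusted p = 1.49e-18, and -6.99 without replicate 2). Gdf3, Utf1, Dppa2, Zscan10 and Dppa4 had log2 changes from -6.51 to -3.88.

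Genes shared with later progenitors fell less. Sall4, a zinc-finger factor also used in mesoderm and limb, was still at 124, 81.98 and 129 CPM on day 6 (-1.98 ± 0.11, adjusted p = 3.68e-11), and Lin28a, an inhibitor of let-7 maturation, at 227, 179 and 236 CPM (-1.76 ± 0.08, adjusted p = 8.49e-13). Its paralog Lin28b measured 149, 158 and 155 CPM on day 3 and 139.7, 80.1 and 146 CPM on day 6 and did not pass the test (adjusted p = 0.0526), though it did without day 6 replicate 1 or 3 (adjusted p = 0.0212 and 0.00906). Sox2, which serves both pluripotent and neural cells, measured 49.7, 58.2 and 51.5 CPM on day 3 and 40.1, 11.1 and 37.1 CPM on day 6. Day 6 replicates 1 and 3 lay a little below day 3 and replicate 2 far below (-0.85 ± 0.31, adjusted p = 0.0275, and -0.46 without replicate 2). Its call was lost with scaling by totals (adjusted p = 0.075) and without day 3 replicate 2 or day 3 replicate 3 (adjusted p = 0.0738 and 0.0513).

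Markers of the formative and primed epiblast, the state between naive pluripotency and gastrulation, fell as a group. All 12 genes tested fell, 10 of them by at least 2-fold (median -2.44, and -2.42 without replicate 2). Dnmt3b, a de novo DNA methyltransferase, measured 905, 1151 and 935 CPM on day 3 and 56.1, 59.0 and 58.98 CPM on day 6. The replicates were nearly equal on day 6, replicate 2 included (-4.10 ± 0.10, adjusted p = 1.08e-16, and -4.11 without replicate 2). Fgf5, a growth factor of the epiblast, fell by 3.56 on the log2 scale and Otx2, its homeobox regulator in the anterior epiblast and brain, by 2.70. Of 9 DNA methylation genes 6 fell and 1 rose: Dnmt3l changed by -4.60 ± 0.25 (-5.29 without replicate 2), Tet1 by -2.20 ± 0.16 and Dnmt3a by -0.70 ± 0.10, whereas the demethylase Tet3 rose by 1.97 ± 0.08 from 47.3, 58.6 and 47.3 CPM to 192, 202 and 205 CPM. Dnmt1, the maintenance enzyme, measured 228, 248 and 226 CPM on day 3 and 248, 200.3 and 276 CPM on day 6 and did not pass the test (adjusted p = 0.656, and 0.0133 without replicate 2).

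In the naive pluripotency list, 10 of 17 genes fell and 4 rose (median -1.75, and -1.68 without replicate 2). Nanog apart, genes of this list were at or under 32.8 CPM on day 3: Dppa5a went from 26.5, 27.6 and 30.4 CPM to 1.62, 2.07 and 1.84 CPM and Zfp42 from 7.45, 7.44 and 6.89 CPM to 1.39, 2.49 and 1.46 CPM. Klf5, also a factor of simple epithelia, moved the other way, at 28.4, 20.4 and 21.5 CPM on day 3 and 54.6, 227 and 55.02 CPM on day 6. Replicate 2 held the highest value by far, and the rise was 2.25 ± 0.44 (adjusted p = 0.000536) with it and 1.21 without it. Germline genes (13 of 20 fell, median -2.50, or -1.97 with genes absent on a whole day set at their bound, and -3.84 without replicate 2) were at or under 16.3 CPM on day 3, and genes of the early cleavage embryo (6 of 10 fell, median -3.45, and -4.13 without replicate 2) at or under 3.34 CPM. Reads of the Zscan4 genes among them cannot be assigned with certainty because the copies are nearly identical.

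The microRNA clusters of pluripotent cells fell with these genes. Reads were counted over microRNA hairpin genes, so the values stand for primary transcript or precursor and not for mature microRNAs, and these genes were chosen for display after their values were seen. The mouse miR-290 to miR-295 and miR-302 to miR-367 clusters are known for a shared seed, which is the stretch of bases 2 to 8 that pairs with targets. The mature sequences below (RefSeq, GRCm38.p6, 5′ to 3′, seed in capitals) show that 5 of them carry the seed AAGUGCU and 3 others the seed AUUGCAC known from the miR-92 family.
mmu-miR-291a-3p: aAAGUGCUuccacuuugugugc
mmu-miR-294-3p: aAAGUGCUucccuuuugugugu
mmu-miR-295-3p: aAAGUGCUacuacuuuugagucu
mmu-miR-302b-3p: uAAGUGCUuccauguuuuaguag
mmu-miR-302d-3p: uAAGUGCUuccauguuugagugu
mmu-miR-367-3p: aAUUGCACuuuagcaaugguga
mmu-miR-363-3p: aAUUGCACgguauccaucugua
mmu-miR-92a-3p: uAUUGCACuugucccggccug

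Mir367 measured 17.2, 13.3 and 16.3 CPM on day 3 and 0, 0 and 0 CPM on day 6. With no read in any day 6 library, it was at least 112-fold lower against a floor of 3 counts per library. Mir302a (10.3, 8.05 and 8.002 CPM on day 3) and Mir302d (5.13, 5.39 and 4.505 CPM) were also at 0 in all 3 day 6 libraries, at least 62.9-fold and at least 35.9-fold lower. Mir302b measured 4.82, 4.21 and 4.24 CPM on day 3 and 0.139, 0 and 0.0472 CPM on day 6, a log2 change of -6.02 ± 0.55 (adjusted p = 1.19e-07, and -5.47 without replicate 2). From the other cluster, Mir294 was at least 10.2-fold lower and Mir295 changed by -5.11 ± 0.46. Mir293 went from 10.6, 10.2 and 8.903 CPM to 0.0925, 0.2303 and 0.189 CPM, with no overlap between days (-5.81 ± 0.27, adjusted p = 1.15e-12). Mir363 and Mir92-2, which lie together on the X chromosome, changed by -5.38 ± 0.48 and -4.73 ± 0.57. Among all 118 hairpin genes tested, 36 fell and 14 rose, with a median of -0.40 (-0.41 without replicate 2), and 68 did not pass the test. Mir335, which lies within the imprinted gene Mest, was among those that rose, from 0.657, 1.61 and 1.54 CPM to 11.2, 3.22 and 11.1 CPM (2.77 ± 0.42, adjusted p = 1.84e-05), together with Mest itself, whose reads it may share.

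Primitive streak genes fell on balance, but a few stayed near their day 3 level. Of 21 genes 14 fell and 3 rose (median -1.24, and -1.58 without replicate 2). Wnt8a, a Wnt ligand of the posterior epiblast, measured 58.7, 34.3 and 63.5 CPM on day 3 and 0.832, 1.197 and 0.567 CPM on day 6. Day 6 values were low in every library (-5.90 ± 0.24, adjusted p = 1.86e-12, and -6.21 without replicate 2). Nodal, the TGF-beta family ligand that patterns the streak, measured 54.6, 56.9 and 56.5 CPM on day 3 and 2.77, 6.22 and 3.02 CPM on day 6. Replicate 2 was the highest day 6 library and still far below day 3 (-3.80 ± 0.20, adjusted p = 6.74e-11, and -4.27 without replicate 2). Its feedback inhibitors Lefty1 and Lefty2 changed by -4.45 ± 0.17 and -4.37 ± 0.19, and Fgf4 and Fgf17 by -5.55 ± 0.23 and -4.56 ± 0.27. Nkx1-2, a marker of the caudal epiblast, changed by -5.11 ± 0.19 and Eomes, a T-box factor of the early streak, by -3.10 ± 0.31.

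T, which encodes brachyury, a T-box protein of streak and notochord (ENSMUSG00000062327, chr17:8434423-8442496), measured 71.9, 26.4 and 58.7 CPM on day 3 and 33.7, 11.3 and 37.4 CPM on day 6. The days overlapped, since day 3 replicate 2 lay below day 6 replicates 1 and 3. Its change of -0.94 ± 0.38 was called (adjusted p = 0.0437), but not without replicate 2 (-0.58, adjusted p = 0.114). It was not called under RLE scaling (adjusted p = 0.0571), scaling by totals (0.0913), DESeq2 (0.0627), or without day 3 replicate 1 (0.183) or day 3 replicate 3 (0.109) either. Sp5, a Wnt target and zinc-finger factor, measured 15.6, 6.57 and 11.6 CPM on day 3 and 12.6, 9.03 and 11.1 CPM on day 6 and did not pass the test (adjusted p = 0.857). The caudal factors Cdx2 and Cdx4 fell, Cdx4 from 4.38, 2.23 and 4.13 CPM to 1 read over the 3 day 6 libraries, a ratio of 239 (95% counting interval 42.4 to 9473), and Lhx1, a LIM factor of the head organizer and later kidney, rose by 4.85 ± 0.50.

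Genes of the presomitic mesoderm and somites mostly rose: 15 of 21, 13 by at least 2-fold, with 1 lower (median 1.91, and 2.27 without replicate 2). Meox1, a homeobox factor of early somites (ENSMUSG00000001493, chr11:101877510-101894374), measured 0, 0 and 0.159 CPM on day 3 and 131, 29.6 and 135 CPM on day 6. The 3 day 3 libraries held 3 reads in all and the day 6 libraries 6344, a ratio of 1896 (95% counting interval 648 to 9195). Replicate 2 held less than the other two, but was far above day 3. Foxc2 and Foxc1, forkhead factors of paraxial mesoderm, measured 39.6, 13.9 and 44.9 CPM and 143, 56.6 and 133 CPM on day 6. Both rose from under 1 CPM, by 8.76 ± 0.58 and 7.77 ± 0.37 (adjusted p = 1.39e-09 and 7.37e-11, and 9.13 and 8.09 without replicate 2). Tcf15, the bHLH factor paraxis that keeps somites epithelial, measured 5.17, 6.51 and 5.299 CPM on day 3 and 24.1, 5.99 and 19.7 CPM on day 6. Replicate 2 lay within the day 3 range and the other two above it (1.56 ± 0.33, adjusted p = 0.00059, and 1.96 without replicate 2).

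The list also holds markers of formed somites and genes of the segmentation clock. Tbx18 and Uncx, which mark the front and the back of a somite, rose by 5.74 ± 0.51 and 5.98 ± 0.66, and Ripply1, a repressor that ends the presomitic program, by 3.46 ± 0.41. Aldh1a2, the enzyme that makes retinoic acid in somites, rose from 0.482, 0.496 and 0.318 CPM to 10.2, 12.2 and 10.01 CPM. Its day 6 replicates were close together, replicate 2 included (4.62 ± 0.20, adjusted p = 4.94e-13, and 4.53 without replicate 2). Lfng, a Notch modifier of the segmentation clock, did not pass the test and measured 10.4, 9.23 and 9.27 CPM on day 3 and 11.01, 7.05 and 10.6 CPM on day 6 (adjusted p = 0.944). Dll1, a Notch ligand, measured 8.24, 13.5 and 10.2 CPM on day 3 and 14.7, 5.66 and 15.7 CPM on day 6 (adjusted p = 0.565), with day 6 replicates 1 and 3 above and replicate 2 below the day 3 range; without replicate 2 it was called (0.54, adjusted p = 0.000437). Hes7 and Tbx6 stayed under 1 CPM in all 6 libraries, and Dll3 fell by 1.61 on the log2 scale (adjusted p = 0.000385). Mesp1, Msgn1 and Ripply2 were not analysed here.

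Muscle progenitor genes rose, while the genes that commit cells to muscle stayed at trace levels. In this list 14 of 17 genes rose and 1 fell, with a median of 3.34 (3.43 without replicate 2, and 3.06 with Myog, absent on day 3, at its bound). Pax3, the paired-box factor of the dermomyotome and neural crest, measured 1.05, 0.682 and 0.954 CPM on day 3 and 53.3, 17.2 and 53.8 CPM on day 6. Day 6 lay above day 3 throughout, replicate 2 least (5.50 ± 0.42, adjusted p = 2.43e-08, and 5.86 without replicate 2). Eya1 and Eya2, cofactors in muscle determination, rose by 3.06 ± 0.32 and 4.03 ± 0.56. Sim1 and Lbx1, factors of migrating and hypaxial progenitors, rose by 5.28 ± 0.50 and 4.57 ± 0.66. Cardiac-type actin Actc1, the main actin of embryonic muscle, rose to 145, 76.2 and 153 CPM (4.67 ± 0.27, adjusted p = 1.15e-09). Of the determination genes, Myf5 was at 1.02, 0.368 and 0.803 CPM and Myog, with no read on day 3, at 0.185, 0.138 and 0.189 CPM on day 6. Embryonic myosin Myh3 fell by 2.52 on the log2 scale, and Ttn was not called (adjusted p = 0.0869, and 0.0155 without replicate 2).

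Genes of other mesoderm rose too. For lateral plate and heart, 12 of 16 rose (median 2.40, and 2.29 without replicate 2), with the largest fitted rise in Prrx1, a limb and lateral plate homeobox factor, at 0.482, 0.558 and 0.318 CPM on day 3 and 77.96, 29.01 and 81.2 CPM on day 6. All day 6 libraries were far above day 3 (7.10 ± 0.43, adjusted p = 1.26e-09, and 7.45 without replicate 2). The cardiac factors Nkx2-5 and Gata4 were not called (adjusted p = 0.407 and 0.715), and Nkx2-5 stayed under 1 CPM. Wt1, a zinc-finger factor of kidney and mesothelium, went the other way, at 31.5, 46.3 and 37.7 CPM on day 3 and 0.925, 2.07 and 0.992 CPM on day 6. The days were widely apart (-4.84 ± 0.28, adjusted p = 3.81e-11, and -5.31 without replicate 2). Of the intermediate mesoderm genes 7 of 12 rose and 2 fell (median 3.20, and 3.08 without replicate 2). With 2 genes absent on day 3 at their bounds the median was 3.13. Osr1, an early kidney-field factor with no read on day 3, was at 2.497, 1.47 and 2.27 CPM on day 6, at least 13.1-fold higher. For endothelium and blood, 12 of 15 rose (median 1.74, and 1.98 without replicate 2): Kdr, the main VEGF receptor, went from 1.45, 1.43 and 1.17 CPM to 27.8, 14.2 and 31.4 CPM (4.18 ± 0.29), and Cdh5, VE-cadherin, rose by 5.76 ± 0.71, while Pecam1 measured 2.103, 3.16 and 2.49 CPM on day 3 and 2.45, 1.704 and 2.36 CPM on day 6 and was not called (adjusted p = 0.253).

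**Figure D2:**
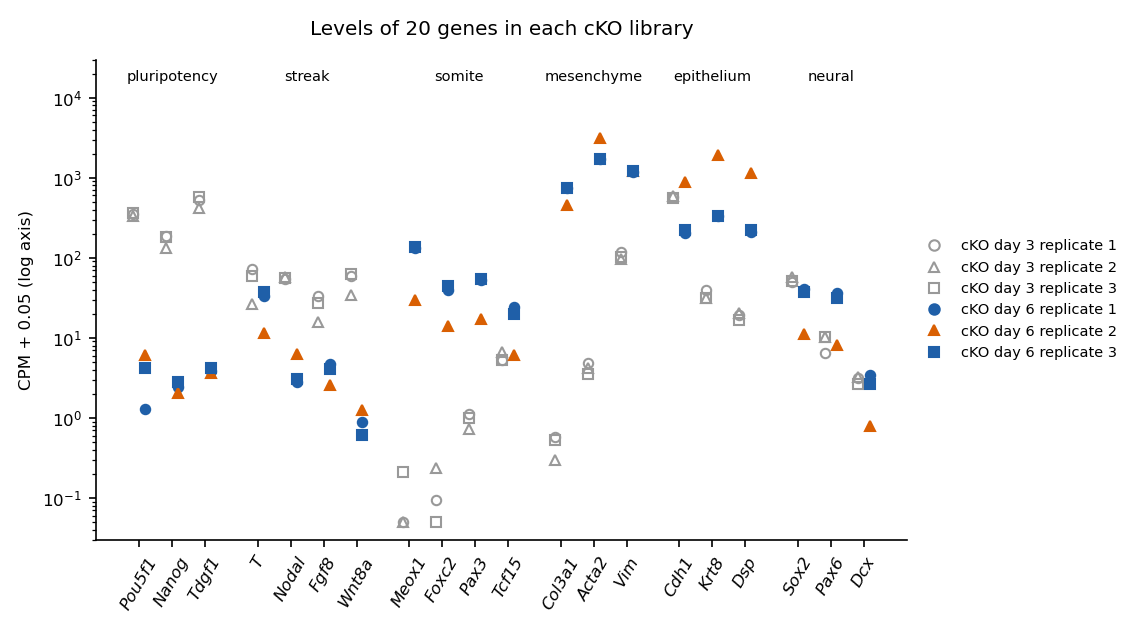
Level of 20 genes in each of the 6 cKO libraries, as CPM plus 0.05 on a log axis; open grey markers stand for day 3 and filled markers for day 6, with replicate 2 of day 6 in orange. Pou5f1, Nanog and Tdgf1 lie above 100 CPM on day 3 and below 10 CPM on day 6, Meox1, Foxc2 and Col3a1 move from under 1 CPM to over 10 CPM, and replicate 2 of day 6 lies above the other two for Krt8, Dsp and Cdh1 and below them for Pax3.

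Hox genes rose by group along the clusters. Of 33 tested, 26 rose, 25 by at least 2-fold, and 1 fell (median 5.23, and 5.61 without replicate 2; 4.80 with genes absent on a whole day at their bounds). The first paralogs Hoxb1 and Hoxd1 were already present on day 3, at 4.86, 3.04 and 5.35 CPM and 0.745, 0.372 and 0.795 CPM, and rose by 0.63 ± 0.23 and 1.87 ± 0.38, the smallest rises called in the list. Hoxb1 lost its call without day 3 replicate 2, day 6 replicate 1 or day 6 replicate 3 (adjusted p = 0.13, 0.106 and 0.0893). Paralogs 2 rose by 2.75 ± 0.34 for Hoxb2 and 2.91 ± 0.37 for Hoxa2. From paralog 3 to paralog 9 every gene tested rose, by at least 3.57 on the log2 scale where reads were present on day 3. Hoxb4 measured 0.307, 0.496 and 0.477 CPM on day 3 and 33.9, 13.6 and 34.1 CPM on day 6. All day 6 libraries were above day 3, with replicate 2 lowest (6.01 ± 0.40, adjusted p = 2.1e-09, and 6.33 without replicate 2). Hoxb9, at the thoracic end, measured 0.263, 0.434 and 0.265 CPM on day 3 and 32.0, 19.8 and 37.6 CPM on day 6. It was separated in the same way (6.55 ± 0.33, adjusted p = 1.06e-10, and 6.78 without replicate 2).

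The most posterior paralogs did not follow. Hoxa10 and Hoxc10 stayed at or under 0.322 CPM and were not called. Hoxd13, a gene of the tail bud, limb tip and genital tubercle, measured 1.88, 2.48 and 2.17 CPM on day 3 and 0.0925, 0.2303 and 0.142 CPM on day 6. It fell in all 3 libraries (-3.75 ± 0.41, adjusted p = 1.39e-07, and -4.14 without replicate 2). Hoxc13 measured 0.657, 0.6196 and 1.01 CPM on day 3 and 0.277, 2.12 and 0.331 CPM on day 6, with replicate 2 alone above day 3, and was not called (adjusted p = 0.717, and 0.0135 without replicate 2). Hoxa11 and Hoxd10 to Hoxd12 were not analysed here. Hox genes overlap antisense transcripts, and no source used here gives the strand setting of the counts, so reads of both cannot be told apart.

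**Figure D3:**
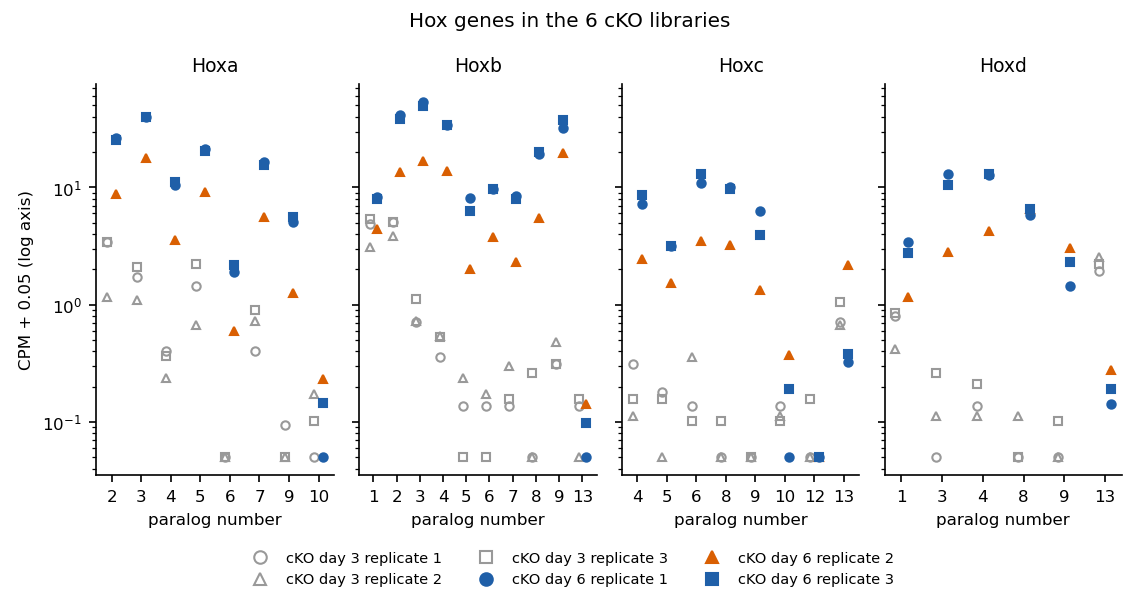
Hox genes of clusters A to D in the 6 cKO libraries, as CPM plus 0.05 on a log axis against paralog number; open grey markers stand for day 3 and filled markers for day 6, with replicate 2 of day 6 in orange. Day 6 libraries lie above day 3 from paralog 2 to paralog 9, with replicate 2 lower than the other two for most genes, and Hoxd13 lies below day 3.

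Mesenchymal genes showed some of the largest rises. In the fibroblast and extracellular matrix list 20 of 22 genes rose and 1 fell (median 4.47, and 3.86 without replicate 2). Somite and lateral plate derivatives make these genes as well as fibroblasts, and which cells made them was not tested. Col3a1, a fibrillar collagen, measured 0.526, 0.248 and 0.477 CPM on day 3 and 735, 463 and 741 CPM on day 6. Replicate 2 was the lowest day 6 library, far above all of day 3 (10.53 ± 0.25, adjusted p = 3.68e-15, and 10.72 without replicate 2). Acta2, smooth muscle actin, measured 4.82, 4.09 and 3.498 CPM on day 3 and 1701, 3168 and 1704 CPM on day 6. Replicate 2 was highest here (9.04 ± 0.27, adjusted p = 6.41e-13, and 8.67 without replicate 2). Postn, the matrix protein periostin, held 2 reads over the day 3 libraries and 3024 over the day 6 libraries, a ratio of 1355 (95% counting interval 375 to 11200.0). The PDGF receptors Pdgfra and Pdgfrb rose by 5.68 ± 0.52 and 6.43 ± 0.27. Fn1, fibronectin, rose from 160.1, 183 and 165 CPM to 2088, 6391 and 2206 CPM (4.39 ± 0.36, adjusted p = 1.18e-07, and 3.67 without replicate 2). Thy1, a surface marker of fibroblasts and other cells, measured 20.99, 22.9 and 20.8 CPM on day 3 and 1.62, 15.01 and 1.98 CPM on day 6. It fell, and replicate 2 alone lay near the day 3 level (-1.79 ± 0.55, adjusted p = 0.0115, and -3.57 without replicate 2). Dcn, decorin, was not called (adjusted p = 0.527).

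All 13 genes of the epithelial to mesenchymal transition list rose by at least 2-fold (median 3.62, and 3.67 without replicate 2). Vim, the mesenchymal intermediate filament, measured 116, 96.4 and 101 CPM on day 3 and 1169, 1203 and 1209 CPM on day 6. The day 6 replicates were nearly equal (3.51 ± 0.08, adjusted p = 9.45e-17, and 3.51 without replicate 2). Cdh2, N-cadherin, rose by 3.62 ± 0.13, and the repressors of E-cadherin rose with it: Snai1 by 2.66 ± 0.18, Snai2 by 4.34 ± 0.25, Zeb1 by 2.58 ± 0.21 and Zeb2 by 1.44 ± 0.10. Twist1, a bHLH factor of head and limb mesenchyme, measured 4.51, 4.03 and 4.93 CPM on day 3 and 55.5, 19.6 and 57.6 CPM on day 6, with no overlap between days (3.30 ± 0.31, adjusted p = 1.56e-07).

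Epithelial junction genes and keratins gave the one list whose direction depended on replicate 2. With it 11 of 24 rose and 6 fell (median 0.55), with 10 up and 2 down by at least 2-fold. Without it 11 rose and 13 fell (median -0.29), with 9 up and 9 down by at least 2-fold. Cdh1, E-cadherin, measured 574, 598 and 553 CPM on day 3 and 206, 893 and 221 CPM on day 6. Replicates 1 and 3 lay well below the day 3 level and replicate 2 above it. It was not called over all 3 day 6 libraries (-0.39 ± 0.40, adjusted p = 0.416) and fell without replicate 2 (-1.43, adjusted p = 1.18e-24). Epcam, an epithelial adhesion protein of pluripotent cells, measured 285, 272 and 278 CPM on day 3 and 42.9, 108 and 45.2 CPM on day 6. It fell in all 3 libraries, least in replicate 2 (-2.09 ± 0.26, adjusted p = 5.82e-06, and -2.66 without replicate 2).

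Simple keratins and desmoplakin lay above day 3 in every day 6 library. Krt8 and its partner Krt18, the filaments of simple epithelia, measured 334, 1912 and 330.3 CPM and 245, 1568 and 246 CPM on day 6, against 39.6, 31.2 and 31.2 CPM and 28.3, 24.8 and 25.3 CPM on day 3. Replicate 2 was far above the other two, and the rises were 4.66 ± 0.60 and 4.71 ± 0.63 with it and 3.28 and 3.23 without it. Dsp, desmoplakin, measured 19.3, 20.1 and 16.7 CPM on day 3 and 207, 1158 and 219 CPM on day 6, the same order of libraries (4.82 ± 0.59, adjusted p = 7.77e-06, and 3.51 without replicate 2). Among surface ectoderm genes 8 of 11 rose (median 3.41, and 2.21 without replicate 2), including Tfap2a (3.85 ± 0.47), Grhl3 (2.94 ± 0.37) and the ligand Wnt6 (4.89 ± 0.56), or 3.20, 2.21 and 3.82 without replicate 2. Trp63, the p63 factor of the epidermis, rose to 1.02, 0.829 and 0.992 CPM.

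Extraembryonic and endoderm lists rose in part. Of the extraembryonic endoderm genes 11 of 21 rose and 3 fell (median 1.26, and 1.0 without replicate 2). They included basement membrane genes, with Col4a1 at 559.5, 1351 and 559 CPM on day 6 (4.10 ± 0.28) and Col4a2 at 453, 1078 and 437 CPM (5.32 ± 0.31). Without replicate 2 these rises were 3.54 and 4.76. Apoe and Apoa2, lipid carriers of the yolk sac, fell by 1.99 and 2.66 on the log2 scale, Gata4 was not called and Hnf4a had no read in the 6 libraries. In the definitive endoderm list 8 of 11 rose and 2 fell (median 1.82, and 2.02 without replicate 2). Among those that rose were Sox17 (5.91 ± 0.58, with 9.34, 2.58 and 8.03 CPM on day 6) and Foxa1 (5.05 ± 0.57, with 11.1, 3.36 and 11.5 CPM). Shh, the hedgehog ligand of notochord, floor plate and gut, had no read on day 3 and measured 10.5, 3.45 and 12.6 CPM on day 6. It was at least 55.6-fold higher, with replicate 2 the lowest of the 3 libraries. Of the trophoblast genes 9 of 15 rose and 3 fell (median 1.40, and 1.24 without replicate 2), and Elf5, a factor of trophoblast stem cells, measured 0.3699, 0.783 and 0.236 CPM on day 6.

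Neural lists divided. Among neural progenitor genes 12 of 25 rose and 10 fell (median 0.46, and 0.86 without replicate 2). Those that fell included genes that were high on day 3: Olig2, a bHLH factor of ventral progenitors, measured 50.7, 48.7 and 50.6 CPM on day 3 and 4.16, 1.84 and 5.05 CPM on day 6. All day 6 libraries were far lower (-3.76 ± 0.25, adjusted p = 1.09e-09, and -3.44 without replicate 2). Gbx2, a homeobox factor of the hindbrain border also used in pluripotent cells, fell by 3.45 on the log2 scale and Sox3 by 1.84. Pax6, a paired-box factor of spinal cord and forebrain, measured 6.35, 10.2 and 10.3 CPM on day 3 and 36.3, 8.11 and 31.5 CPM on day 6. Replicates 1 and 3 were above day 3 and replicate 2 within its range (1.51 ± 0.38, adjusted p = 0.00337, and 1.94 without replicate 2). Sox1 measured 19.5, 26.4 and 23.8 CPM on day 3 and 24.7, 4.61 and 20.2 CPM on day 6, with replicate 2 far below all others, and was not called (adjusted p = 0.287). Zic1 and Nkx6-1 rose by 4.26 ± 0.30 and 4.91 ± 0.49.

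Neuronal genes leaned down, with 13 of 26 lower and 9 higher (median -0.52, and -0.49 without replicate 2). Ina, a neurofilament protein of young neurons, measured 77.6, 87.3 and 83.8 CPM on day 3 and 3.14, 4.24 and 4.77 CPM on day 6. The days were widely apart and the replicates of a day close (-4.35 ± 0.13, adjusted p = 2.88e-15, and -4.39 without replicate 2). Nefl fell by 2.11 and Elavl2 by 1.62 on the log2 scale. Dpysl3, a collapsin response mediator that many migrating cells also make, rose from 18.2, 20.9 and 17.8 CPM to 244, 288 and 265 CPM (3.81 ± 0.09, adjusted p = 9.45e-17). Dcx, doublecortin of migrating neurons, was under 4 CPM in all 6 libraries and was not called (adjusted p = 0.317), though it was without day 6 replicate 1 (adjusted p = 0.0435). Of the neural crest genes 13 of 16 rose (median 2.82, and 2.99 without replicate 2), with Ets1 at 146, 136 and 154 CPM on day 6 (4.19 ± 0.12) and the endothelin receptor Ednrb at 42.9, 10.4 and 43.02 CPM (6.74 ± 0.61). Foxd3, shared by crest and pluripotent cells, fell from 11.9, 17.04 and 9.698 CPM to 0.0925, 0.0461 and 0.283 CPM (-6.46 ± 0.33, adjusted p = 6.05e-12), and the crest factor Sox10 measured 0.971, 1.34 and 1.09 CPM on day 6.

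Of 25 genes of TGF-beta, Nodal and BMP signalling 16 rose and 5 fell (median 1.85, and 1.63 without replicate 2). Against the fall of Nodal and its Lefty inhibitors stood the rise of BMP ligands. Bmp4, a ligand of ventral and lateral mesoderm, measured 0.613, 0.372 and 0.795 CPM on day 3 and 29.7, 49.6 and 26.4 CPM on day 6. Replicate 2 was the highest library (5.86 ± 0.32, adjusted p = 1.02e-11, and 5.52 without replicate 2). Bmp2 rose by 5.12 ± 0.23 and Tgfb2 by 6.37 ± 0.33, as did Id1, Id2 and Id3, targets of BMP signalling, by 1.33 ± 0.22, 1.86 ± 0.19 and 1.07 ± 0.17. The BMP antagonist Nog rose by 6.20 ± 0.65 (5.37 without replicate 2).

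FGF and ERK response genes were split, 7 of 17 higher and 8 lower (median -0.38, and -0.32 without replicate 2). The ETS factors Etv5 and Etv4, targets of FGF signalling, measured 29.2, 34.6 and 34.3 CPM and 6.52, 6.77 and 7.89 CPM on day 6, after 226, 261 and 234 CPM and 29.8, 30.8 and 31.3 CPM on day 3. Both fell in every library (-2.88 ± 0.08 and -2.12 ± 0.11), and so did the feedback inhibitors Spry4 (-2.70 ± 0.15) and Spry2 (-1.57 ± 0.07), while Spry1 rose (2.79 ± 0.13). Of the Wnt response genes 8 of 15 rose and 5 fell (median 0.56, and 0.38 without replicate 2). Ccnd1 and Lef1 fell by 1.62 and 1.40 on the log2 scale, and the feedback inhibitors Nkd1 and Dkk1 rose by 2.98 ± 0.19 and 4.54 ± 0.53. Dkk1 is also a gene of the presomitic list and measured 0.438, 0 and 0.1 CPM on day 3 and 6.06, 2.35 and 5.01 CPM on day 6.

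Retinoic acid genes rose in 12 of 15 cases (median 1.84, and 2.04 without replicate 2). They included the synthesizing enzymes Rdh10 (1.84 ± 0.14) and Aldh1a2, the degrading enzyme Cyp26a1 (4.12 ± 0.50), the uptake receptor Stra6 (4.93 ± 0.46) and the nuclear receptor Rarb, itself a retinoic acid target. Rarb measured 1.31, 0.434 and 1.01 CPM on day 3 and 16.3, 4.19 and 16.9 CPM on day 6. All day 6 libraries were above day 3, replicate 2 least (3.70 ± 0.45, adjusted p = 2.45e-06, and 4.10 without replicate 2). In the Notch list 9 of 17 rose (median 0.81, and 0.95 without replicate 2), among them the receptor Notch1 (1.70 ± 0.16) and the target Heyl (5.56 ± 0.52), while Hes1 and Jag2 were not called (adjusted p = 0.147 and 0.676). Without replicate 2 Hes1 rose by 0.32 and Jag2 changed by -1.16 (adjusted p = 0.0021 and 1.53e-11).

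Imprinted genes mostly rose, those of fetal growth among them. Of 24 imprinted genes 16 rose and 5 fell (median 1.90, and 2.08 without replicate 2). Igf2, the fetal growth factor, measured 1.14, 3.04 and 0.689 CPM on day 3 and 234, 184 and 222 CPM on day 6. Its neighbour H19, a noncoding RNA under the same enhancers, measured 35.5, 54.8 and 36.7 CPM on day 3 and 5958, 3416 and 5289 CPM on day 6. Both rose in every library, by 7.10 ± 0.32 and 6.86 ± 0.22 (adjusted p = 5.13e-11 and 6.65e-13, and 7.22 and 7.07 without replicate 2). Peg10, a retrotransposon-derived gene of the placenta, rose from 181, 218 and 186 CPM to 4047, 5673 and 4038 CPM (4.55 ± 0.13), and Peg3 and Mest rose by 3.28 ± 0.10 and 3.50 ± 0.22. Snrpn fell by 2.51 and Phlda2 by 2.89 on the log2 scale. Of 16 IGF signalling genes 11 rose and 2 fell (median 1.97, and 1.95 without replicate 2). The receptor Igf1r and the binding proteins Igfbp5 and Igfbp4 rose, by 2.59 ± 0.18, 6.12 ± 0.41 and 3.98 ± 0.19. Glycolysis and hypoxia genes were mixed, 11 of 26 higher and 5 lower, with Vegfa up (2.30 ± 0.11) and Eno1 down (-1.30 ± 0.11).

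Most listed proliferation genes fell modestly. In the cell cycle list 22 of 24 genes fell, 7 of them by at least 2-fold, and none rose (median -0.71). The median against day 3 was -1.12 in replicate 2. Without replicate 2, 21 fell, 5 by at least 2-fold, and 1 was called higher (median -0.60). Mcm2, a subunit of the replicative helicase, measured 436, 452 and 439 CPM on day 3 and 178, 143 and 179.9 CPM on day 6. The day 6 libraries lay far below day 3 (-1.40 ± 0.07, adjusted p = 5.02e-12, and -1.30 without replicate 2). Mki67 measured 738, 724 and 736 CPM on day 3 and 682, 447 and 703 CPM on day 6, lowest in replicate 2, and was not called (adjusted p = 0.0843), though it was without day 6 replicate 1 or 3 (adjusted p = 0.041 and 0.0243). Of the p53 targets 13 of 22 rose and 4 fell, 8 up by at least 2-fold (median 0.56). Replicate 2 carried much of this, with a median of 1.27 against 0.07 and 0.19 in replicates 1 and 3, and without it 4 rose by at least 2-fold and the median was 0.12. Cdkn1a, the cyclin-kinase inhibitor p21, measured 66.5, 57.3 and 63.5 CPM on day 3 and 95.7, 239.9 and 98.6 CPM on day 6. The days did not overlap and replicate 2 was highest (1.21 ± 0.26, adjusted p = 0.000946, and 0.64 without replicate 2). Stress genes went both ways, 7 of 20 up and 10 down, with 1 and 4 by at least 2-fold and a median of -0.20, and the integrated stress factor Atf4 fell by 1.16 on the log2 scale.

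Replication-dependent histone genes, whose transcripts end in a stem-loop in place of a poly(A) tail, fell as a class. By family the median change was -1.30 for H1, -1.25 for H3, -0.97 for H4, -0.945 for H2B and -0.715 for H2A. Within H2B, the 7 genes with an octamer in the promoter had a median of -1.79 and the 6 without one -0.83. The largest H2B fall was that of H2bu2, which has none. The histone genes were chosen after their values were seen. Their share of counts was 1.38%, 1.15% and 1.27% on day 3 and 0.866%, 0.349% and 0.780% on day 6. Of 63 genes tested 50 fell, 33 by at least 2-fold, and none rose (median -1.01, and -0.72 without replicate 2, when 21 fell by at least 2-fold and 2 were called higher, H2bc15 by 0.25 and Hist1h2bp by 0.75, named after their values were seen). Near-identical copies may share reads, so single histone genes are uncertain. The octamer, the motif that Oct1 binds, was searched as ATGCAAAT and its reverse ATTTGCAT in the 300 bases from 250 before to 50 after each start. It was found in 532 of 27025 promoters (1.97%), and in 13 of the 50 histone genes whose promoter was matched by symbol (26.0%), all of them H2A or H2B genes. The 4 promoters below (RefSeq, GRCm38.p6, plus strand, octamer in capitals) are those of the 3 H2B genes with an octamer described next and of H2bu2, which has none.
H2bc8, chr13:23571150-23571449: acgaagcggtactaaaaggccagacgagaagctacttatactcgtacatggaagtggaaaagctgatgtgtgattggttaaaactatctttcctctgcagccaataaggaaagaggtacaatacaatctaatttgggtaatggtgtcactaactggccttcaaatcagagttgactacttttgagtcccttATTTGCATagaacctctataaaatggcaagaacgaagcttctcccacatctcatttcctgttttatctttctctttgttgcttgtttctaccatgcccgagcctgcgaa
H2bc3, chr13:23746484-23746783: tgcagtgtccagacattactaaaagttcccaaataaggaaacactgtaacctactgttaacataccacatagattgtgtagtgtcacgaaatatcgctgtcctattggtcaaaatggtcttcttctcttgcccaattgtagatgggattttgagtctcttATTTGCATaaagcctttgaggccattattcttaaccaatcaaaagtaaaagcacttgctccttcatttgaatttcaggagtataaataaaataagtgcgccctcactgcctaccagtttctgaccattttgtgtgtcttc
H2bc14, chr13:21721794-21722093: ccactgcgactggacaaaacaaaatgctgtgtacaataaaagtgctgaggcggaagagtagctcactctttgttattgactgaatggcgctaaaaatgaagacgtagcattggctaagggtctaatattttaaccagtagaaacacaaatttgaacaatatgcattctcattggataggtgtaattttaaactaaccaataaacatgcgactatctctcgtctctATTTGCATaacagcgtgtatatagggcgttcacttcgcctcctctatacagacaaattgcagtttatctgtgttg
H2bu2, chr11:58948661-58948960: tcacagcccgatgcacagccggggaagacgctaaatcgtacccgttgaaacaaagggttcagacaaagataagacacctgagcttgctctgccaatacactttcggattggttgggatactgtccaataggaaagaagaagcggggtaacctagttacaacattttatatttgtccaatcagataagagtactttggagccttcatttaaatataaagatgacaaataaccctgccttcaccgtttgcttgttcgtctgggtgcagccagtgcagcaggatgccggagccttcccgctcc

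H2bc8 (ENSMUSG00000058385, chr13:23571396-23572013) measured 270.4, 170.4 and 218 CPM on day 3 and 27.3, 17.9 and 33.4 CPM on day 6. The 3 day 6 libraries lay far below day 3 (-3.07 ± 0.21, adjusted p = 8.01e-09, and -2.86 without replicate 2). H2bc3 and H2bc14 measured 34.3, 21.05 and 27.2 CPM and 47.8, 17.3 and 38.9 CPM on day 6, after 172, 137 and 145 CPM and 131, 106 and 123 CPM on day 3. They fell by 2.46 and 1.79 on the log2 scale (adjusted p = 3.11e-11 and 1.48e-05, and -2.30 and -1.47 without replicate 2). H2bu2, with no octamer in this window, measured 35.01, 25.5 and 33.1 CPM on day 3 and 0.601, 0.322 and 1.18 CPM on day 6 and fell by more than any of these (-5.47 ± 0.26, adjusted p = 4.6e-12, and -5.13 without replicate 2). The 7 H2B genes with an octamer had a median change of -1.79 and the 6 without one -0.83, or -1.47 and -0.52 without replicate 2. The 6 H2A genes with an octamer had a median of -1.18 and the 8 without one -0.64. No octamer was found in the windows of linker H1, H3 and H4 genes with a matched promoter, 5 of 5, 9 of 11 and 9 of 12 genes, and these families had medians of -1.30, -1.25 and -0.97. In parental cells the median of the 7 H2B genes with an octamer was -0.27 and that of all histone genes -0.18 over the same days. The median of the cKO minus parental differences was -1.04 for these 7 genes. For the H1, H3 and H4 families, with no octamer found, it was -1.09, -0.96 and -0.91. Without replicate 2 it was -1.20 for the 7 genes and -0.83, -0.66 and -0.64 for those families. Among the genes with an octamer, H2ac1 and H2bc1, testis variants at a few CPM, fell in both genotypes. For H2bc1 the log2 change was -3.76 in cKO cells, and it fell by 3.47 in parental cells. These medians are descriptions with no test, and the motif's part in the change was not tested. Promoters were matched by symbol for 12652 of the 20267 genes tested, and 1.75% of these held the octamer. Among matched genes it was in 2.81% of 1992 at least 2-fold lower and 1.75% of 2622 at least 2-fold higher. Without the histone genes the first of these 2 shares was 2.39% of 1966. Where the change differed from parental cells by at least 2-fold, the octamer was in 4.79% of 606 on the more negative side and 2.43% of 947 on the more positive. Without the histone genes the negative side gave 3.9% of 590. These shares were not tested.

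**Figure D4:**
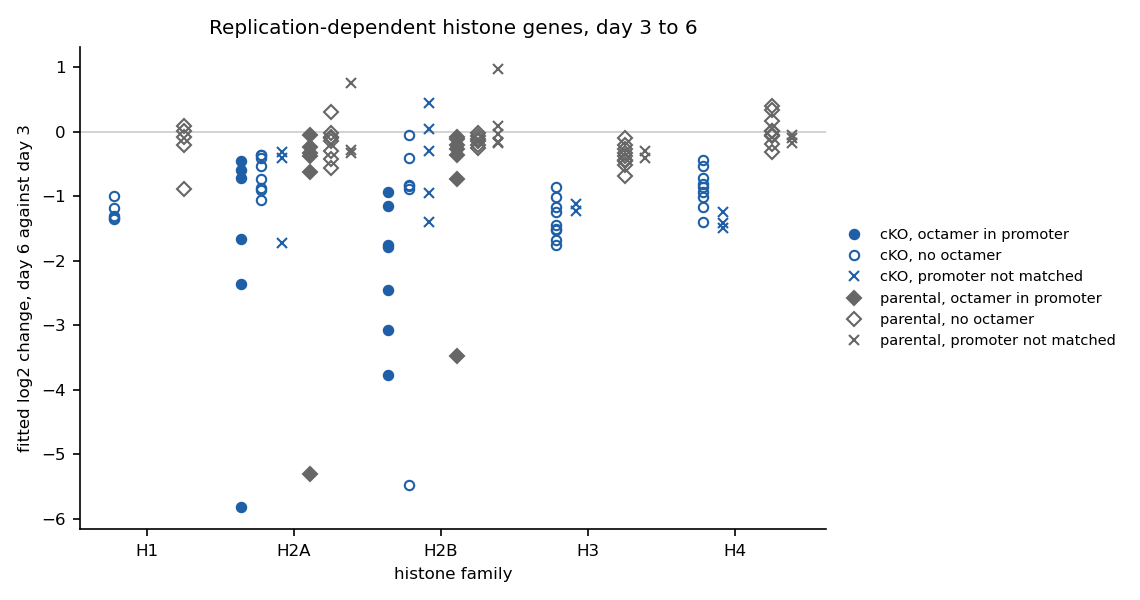
Fitted log2 change from day 3 to day 6 of each replication-dependent histone gene by family, in cKO (blue circles) and parental cells (grey diamonds), filled where the promoter holds the octamer and crosses where no promoter was matched. In cKO cells H2B genes with an octamer have a median of -1.79 and those without -0.83, and the 2 filled diamonds far below 0 are H2ac1 and H2bc1.

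Of 13 POU factor genes 3 rose and 7 fell. Pou2f3 and Pou2f2, the close relatives of Oct1, fell by 5.47 and 1.88 on the log2 scale, Pou2f3 from 28.3, 28.3 and 30.7 CPM to 0.416, 1.01 and 0.519 CPM. Pou3f1, an epiblast and glial factor, measured 118, 150.1 and 118 CPM on day 3 and 13.4, 67.8 and 11.6 CPM on day 6. It fell in every library, least in replicate 2 (-2.05 ± 0.49, adjusted p = 0.00208, and -3.36 without replicate 2). Pou3f2 and Pou3f3, class III factors of the neural tube and kidney, rose by 5.98 ± 0.59 and 5.95 ± 0.53.

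The largest changes outside the lists, among genes that averaged 5 CPM or more and whose days did not overlap, were spread over several kinds of gene. Hapln1, a link protein of cartilage matrix, had no read on day 3 and measured 33.8, 8.47 and 35.3 CPM on day 6. It was at least 163-fold higher, and Fap, a serine protease of mesenchyme, was at least 98.5-fold higher. The orphan nuclear receptors Nr2f1 and Nr2f2, COUP-TF factors of many mesodermal and neural tissues, measured 179, 47.99 and 174 CPM and 144, 54.9 and 138 CPM on day 6 from under 1 CPM on day 3. They rose by 10.03 ± 0.64 and 9.43 ± 0.53 (adjusted p = 6.56e-09 and 1.2e-09, and 10.44 and 9.77 without replicate 2). Dmrt2, a factor of the dermomyotome, held 2 reads on day 3 and 929 on day 6. The largest falls were those of Slc27a2, a fatty acid transporter, at 88.9, 97.5 and 97.7 CPM on day 3 and 0.462, 0.2303 and 0.614 CPM on day 6 (-7.75 ± 0.22, adjusted p = 1.51e-15, and -7.44 without replicate 2), and of Mup6 (-7.12 ± 0.28, and -8.05 without replicate 2), Foxi3 (-6.63 ± 0.23) and Pim2, a survival kinase that went from 496, 566 and 521 CPM to 4.02, 10.6 and 8.22 CPM.

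Genes with the widest gap between replicate 2 and the other day 6 libraries were of a few kinds. Those higher in replicate 2 included Lox, the collagen crosslinking enzyme, at 8.0, 169 and 15.2 CPM on day 6, and skeletal actin Acta1 at 30.5, 349 and 31.1 CPM. Those lower in it included Crabp1, a retinoic acid binding protein, at 179, 35.1 and 172 CPM, and Ednrb, Sox1, Meox1 and Pax6, given above. Lox and Acta1 were called without it too, at log2 changes of 2.33 and 4.35 in place of 4.77 and 6.51.

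The last question is where the change in cKO cells differed from that of parental cells over the same days. The 3 parental libraries of each day share no sample with the cKO comparison, and the difference of the changes was tested in the same model. It was called for 5272 genes, 2515 with a change more positive in cKO cells (12.4% of genes tested) and 2757 with one more negative (13.6%), and for 6532 without replicate 2. Streak genes fell less in cKO cells. In that list 12 of 21 genes changed more positively in cKO cells and 3 more negatively. The median change was -4.18 in parental cells beside -1.24 in cKO cells (-1.58 without replicate 2). The counts of list genes that differed from parental cells, here and below, were made with replicate 2 only. T fell in parental cells from 317 ± 45.3 CPM (SD, n = 3) to 1.44 ± 0.285 CPM, a log2 change of -7.75 ± 0.53. The cKO libraries were lower than these on day 3 and higher on day 6, and the difference of the changes was 6.81 ± 0.64 (adjusted p = 1.09e-05, and 7.17 without replicate 2). Sp5 (4.13 ± 0.35), Cdx1 (4.22 ± 0.44), Fgf8 (3.43 ± 0.43) and Mixl1 (3.38 ± 0.55) differed in the same direction.

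**Figure D5:**
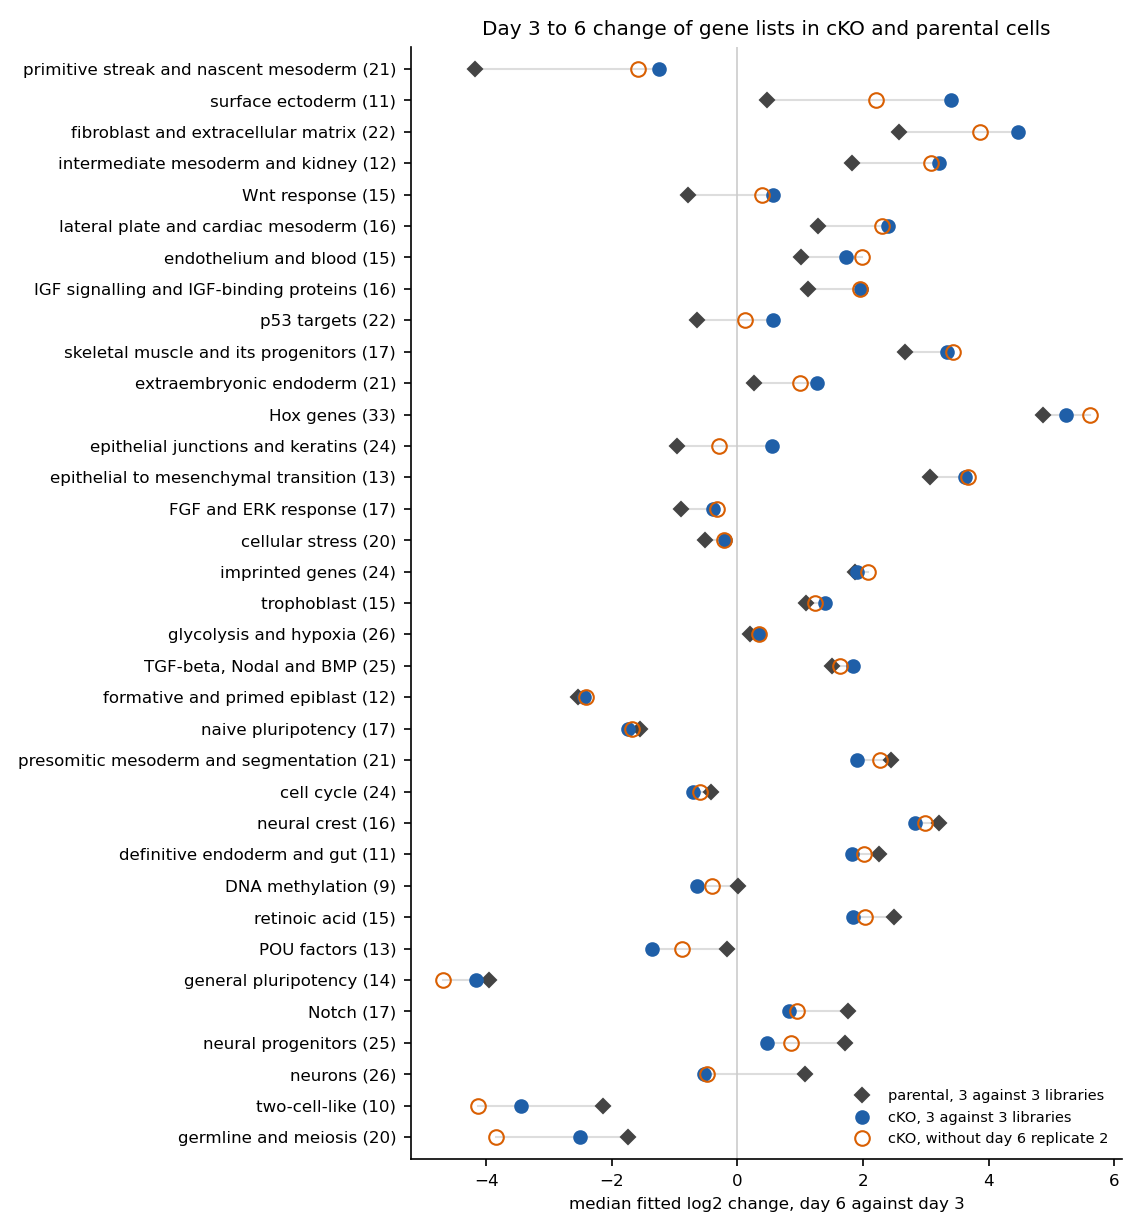
Median fitted log2 change from day 3 to day 6 of each gene list in cKO and in parental cells (x axis, log2 units), with the number of genes tested in brackets; diamonds stand for parental cells, filled circles for cKO cells and open circles for cKO cells without day 6 replicate 2. The streak list lies at -1.24 in cKO and -4.18 in parental cells, neurons at -0.52 and 1.08, and Hox genes at 5.23 and 4.87.

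Neural genes differed in the other direction. Of 26 neuronal genes 15 changed more negatively in cKO cells and 4 more positively, and of 25 neural progenitor genes 12 and 2. The median change of the neuronal list was -0.52 in cKO cells (-0.49 without replicate 2) and 1.08 in parental cells. For the neural progenitor list the medians were 0.46 (0.86 without replicate 2) and 1.71. Replicate 2 was low in the progenitor list, with medians against day 3 of 1.04, -0.34 and 0.76 in day 6 replicates 1, 2 and 3. Sox2 rose in parental cells from 36.8 ± 6.99 CPM to 184 ± 1.64 CPM (2.32 ± 0.31) and fell in cKO cells, a difference of -3.17 ± 0.44 (adjusted p = 0.000225, and -2.77 without replicate 2). Elavl3, a neuronal RNA-binding protein, rose in parental cells by 1.61 ± 0.31 and fell in cKO cells, a difference of -3.24 ± 0.44 (adjusted p = 7.05e-05). Dcx rose by 2.93 ± 0.32 in parental cells to 18.2 ± 1.35 CPM, and differed by -3.32 ± 0.46 (adjusted p = 6.11e-05, and -2.91 without replicate 2). The Notch and clock genes Lfng and Dll1, not called in cKO cells, rose in parental cells by 2.44 ± 0.16 and 2.61 ± 0.27, and the differences were -2.46 ± 0.22 and -2.43 ± 0.38 (adjusted p = 4.63e-07 and 0.000325, and -2.29 and -2.08 without replicate 2).

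Epithelial and p53 genes changed more positively in cKO cells, 19 of 24 and 15 of 22, with none more negatively in either list. Both lists are high in replicate 2, whose part was not tested. Without it their medians were -0.29 and 0.12 in cKO cells, beside -0.97 and -0.65 in parental cells. Perp, a desmosome gene and p53 target, fell in parental cells by 1.68 on the log2 scale and rose in cKO cells, a difference of 3.93 ± 0.73 (adjusted p = 0.00191), or 2.67 without replicate 2. Histone genes changed more negatively in 28 of 63 cases and more positively in none, with a median difference of -0.88, or -0.62 without replicate 2. H2bu2 measured 58.5 ± 4.898 CPM and 53.2 ± 2.32 CPM in parental cells at days 3 and 6, and the difference of its changes was -5.33 ± 0.32 (adjusted p = 1.11e-08, and -4.99 without replicate 2). For H2bc8 the parental levels were 196 ± 11.5 CPM and 181 ± 13.0 CPM and the difference -2.95 ± 0.28 (adjusted p = 7.32e-06, and -2.74 without replicate 2). For the Hox list the parental median was 4.87, and 5 genes changed more positively and 1 more negatively in cKO cells.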

How the data were processed

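The deposited tables hold raw counts of reads per gene for each library, per the file headers, and were made by the authors with Novoalign on mm10 (GRCm38), with DESeq2 1.10.0 also named, per the submitters' processing notes. For the counting tool, annotation and strand setting the sources used here give no statement. Of 25279 genes, the 20267 that passed edgeR's filterByExpr over 6 groups were tested with edgeR 4.0.16 (robust quasi-likelihood, TMM scaling) in R 4.3.3, in a model of 6 group means over all 18 libraries, so that the groups shared 1 estimate of the spread (biological coefficient of variation 13.5%). The contrasts were cKO day 6 minus day 3, and its difference from the same contrast in parental cells. SE is the size of the log2 change over the square root of F. Genes absent on a whole day are given as bounds against a floor of 3 counts per library, and genes with 1 to 3 reads on a day as ratios with 95% counting intervals, which cover counting error only.

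Gene lists, named genes and comparisons were chosen with earlier results of these data known. Genes were named by rule: Pou2f1, the 15 largest non-overlapping called changes each way with a mean of at least 5 CPM, up to 6 called and 3 uncalled genes per list, the 10 largest differences from parental cells each way and the 10 with the widest gap of day 6 replicate 2. Other named genes, histone and microRNA genes among them, were chosen after their values were seen. Histone genes were found by their current symbols. Coordinates come from GENCODE M21 (20247 of 20267 matched), and promoters and microRNAs from RefSeq (GRCm38.p6). On simulated counts edgeR called 44.8%, 80.6% and 93.9% of genes changed 1.5-fold, 2-fold and 4-fold. Only 67, 67 and 66 of 19770 genes were changed there, all with a mean of at least 1 CPM. Counts were drawn from the fitted spread with no library set apart. These shares therefore do not measure recovery in the real comparison, where far more genes changed. Alternatives were DESeq2 1.42.0, other scalings and filters, fits on fewer libraries, and leaving out each library. Day 0 libraries entered only the gene filter, the scaling and the shared spread. Their titles carry another prefix than those of days 3 and 6, and no label used here says what it stands for. Histone genes took 0.0032% to 0.0056% of counts in the day 0 libraries and 0.349% to 1.38% in those of days 3 and 6. Without the day 0 libraries, 6580 genes were called higher and 6157 lower. Results of some genes are not reported here.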

Additional observations from a re-analysis of the deposited data

Results flagged for a closer look

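The day 3 to 6 change of 5272 genes differed between cKO and parental cells in the test of that difference. All values here are cKO minus parental differences of log2 change, and the share of each direction among all genes is given with the comparison above. The value without day 6 replicate 2 follows each in brackets. On the side of a more positive change in cKO cells, T differed by 6.81 (7.17) and Wnt6 by 4.43 (3.34), the first a streak factor and the second a Wnt ligand of surface ectoderm. Gbp2, an interferon-induced GTPase, differed by 6.56 (5.03), at 0.657, 0.124 and 0.795 CPM on day 3 and 22.01, 146 and 21.9 CPM on day 6 in cKO cells. Hapln1 differed by 6.49 (6.88), a fitted value that depends on the prior count because no read was present in cKO cells on day 3. It was not called with libraries scaled by their totals (adjusted p = 0.0586, edgeR) or when any of 10 of the 12 libraries of days 3 and 6 was left out. Cyp1a1, a target of the aryl hydrocarbon receptor, differed by 5.46 (3.32) and had 7.31, 86.6 and 8.12 CPM on day 6, most of it in replicate 2. Trh, the thyrotropin-releasing hormone gene, differed by 5.01 (5.41) and Thy1 by 4.45 (2.67). The epithelial genes Tmprss2 and Tgm1 differed by 4.53 (4.09) and 4.32 (3.28).

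On the side of a more negative change, H2bu2 differed by -5.33 (-4.99), Foxd3 by -3.98 (-3.57) and Fgf4 by -3.63 (-3.91). Spon1, the floor plate adhesion protein F-spondin, differed by -4.56 (-4.17), and Ncan, a proteoglycan of neural tissue, by -3.63 (-3.71), after 120.1, 146 and 129 CPM on day 3 and 6.57, 8.06 and 7.603 CPM on day 6 in cKO cells. The remaining genes are used by neurons: Lrrc4 differed by -3.41 (-3.11), Slitrk2 by -3.39 (-3.16), Apba2 by -3.34 (-2.91), Pcsk2 by -3.33 (-3.11) and Elavl3 by -3.24 (-2.83).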

How the results depend on the processing

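No paired analysis was possible because the labels give no replicate numbers that link libraries. Under the other scalings, filters and tools the count of genes called stayed between 10585 (6 cKO libraries alone) and 14191 (no filter), beside 13404. The count changed by at least 2-fold lay between 6056 and 8358, beside 7455. The count that differed from parental cells lay between 4197 and 5798, beside 5272. Leaving out 1 library gave 12725 to 14000 genes called and 4231 to 6532 that differed from parental cells, the highest of each without day 6 replicate 2. DESeq2 called 13262 genes. No list median changed sign except that of epithelial junction genes, which was -0.29 without day 6 replicate 2. Hoxc13, not called with all libraries, lay between -1.31 (without that replicate) and 0.69 when 1 library was left out, and H2bc15, also not called, between -0.35 and 0.25 (without that replicate, where it was called higher); the cause was not tested for either. Of 218 genes named, 197 kept their direction and call under every alternative that gave them a value (13 for 203 genes, 10 to 12 for the other 15). Of 29 printed differences from parental cells 28 did, over 17 or 18 alternatives. Depth limited genes with under about 3 reads in a library, which are given as bounds. With 3 libraries a day of unknown independence, the spread between cultures was not measured.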
